A study of Homo sapiens with 4 samples.

Results

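The genes described here encode glycosyltransferases that build the sugar chains of glycolipids and glycoproteins. They were chosen by name as protein-coding genes equal to A4GALT, A4GNT, A3GALT2, B3GLCT, B3GALTL or B4GAT1, or beginning with B3GALT, B3GALNT, B3GNT, B3GAT, B4GALT, B4GALNT or ALG and a digit. This gave 50 genes of 2258 protein-coding genes, among 2864 genes in the part of the table analysed here, an alphabetical stretch that ends at names beginning with CAC. The cells were A375, an established human melanoma line, and the drug was vemurafenib, an inhibitor of the mutant BRAF kinase. One pair of libraries set a resistant strain against its parent, and the other set short exposure to the drug against its solvent. A375P was the untreated parental line, and A375R was a resistant strain derived from it under escalating and then continuous vemurafenib. A375+DMSO was A375 kept for 48 h in 1 per mille DMSO, the solvent, and A375+VEM was A375 kept for 48 h in 2 μM vemurafenib. Each of the 4 conditions had 1 library, so no difference below has a replicate check and no test between conditions was possible. All were labelled wild type and as 1 batch, A375R is a single derived strain, and A375P was not given solvent.

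Asparagine-linked glycans start as a lipid-linked sugar chain. ALG enzymes add sugars one after another to dolichol, first on the cytosolic face of the endoplasmic reticulum and then in its lumen, before the chain is moved to protein. Most glycosphingolipids start when galactose is added to glucosylceramide to give lactosylceramide, from which the globo, ganglio and lacto series branch, and gangliosides are well known surface antigens of melanoma. Golgi galactosyl-, N-acetylglucosaminyl- and N-acetylgalactosaminyltransferases extend glycoprotein antennae, and related enzymes build the linker of proteoglycans and the O-linked chains of dystroglycan.

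The part of the table analysed here held 2054277 reads in A375P, 1963230 in A375R, 1891215 with DMSO and 1932550 with vemurafenib. The 50 genes took 24833, 23689, 23821 and 26497 of these reads in the same order. Levels are given as TPM, a share of all transcripts that is scaled by transcript length, so that levels can be compared between genes. The summed TPM of the 50 genes was 1008 in A375P, 996 in A375R, 1003 with DMSO and 1109.5 with vemurafenib, or 1.19%, 1.11%, 1.14% and 1.26% of the summed TPM of the part. In bulk RNA a smaller share of cells using a gene and less of its RNA per cell cannot be told apart.

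A gene was compared between a pair of libraries when its TPM reached 1 in at least 1 of them, and was called higher or lower when log2(TPM + 0.1) differed by more than 1.5-fold. Fold values are ratios of the TPM as deposited, with an exact Clopper-Pearson 95% interval on the reads in brackets, which covers counting error only and compares libraries, not conditions. The libraries without acute vemurafenib were not alike. Between the libraries without vemurafenib, A375+DMSO against A375P, 45.3% of 1579 protein-coding genes compared were called, while 19.3% of 1564 were called in A375R against A375+DMSO. A375+VEM was at least as far from both controls, with 45.6% called against A375+DMSO and 62.5% against A375P. Levels in all 4 libraries are therefore given, with the ratio to the other control where it changes the call, and these comparisons share libraries.

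The cells were also checked against marker genes that lie in this part of the table. Among melanocyte lineage markers, BCL2A1 had 7.67 TPM in A375P, 37.5 in A375R, 4.24 with DMSO and 8.15 with vemurafenib, BEST1 had 5.86 to 10.7, BIRC7 had 0.0944 to 1.66, and ABCB5 was below 0.1 in all 4 libraries with 0 reads in A375R. The summed TPM of these 4 markers was 13.8, 46.2, 15.8 and 16.8. The better known pigment genes were not analysed here. Of other cell types, the 3 lymphocyte markers summed to at most 0.707 TPM, the 3 blood markers to 0.927 to 3.41 with AHSP at 0 in all 4 libraries, and the 3 skeletal and heart muscle markers to 2.05 to 4.36. The 4 liver markers summed to 88.9 TPM in A375P, 72.2 in A375R, 64.6 with DMSO and 65.3 with vemurafenib, most of it ALB with 64.5, 51.5, 47.1 and 46.4, while AHSG had 3.63, 5.26, 4.61 and 4.64. ACTA2, a smooth muscle and myofibroblast actin, had 92.2, 35.0, 28.3 and 40.1 TPM. The liver sum, ACTA2 and the skeletal and heart muscle sum were highest in A375P, while the blood and lymphocyte sums were lowest there. The part of these markers in the differences below was not tested.

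Of the 50 genes, 7 stayed below 1 TPM in all 4 libraries, 12 reached a highest TPM of 1 to below 10, 21 of 10 to below 50 and 10 of at least 50. The 7 low genes were B3GALT1, A4GNT, B3GALNT1, B3GNT3, B4GALNT2, B3GNT6 and B3GAT2. Mean TPM over the 4 libraries was at least 1 for 40 genes. Among these, 32 differed by at least 1.5-fold between their highest and lowest library and 8 did not, namely ALG5, ALG1, ALG13, B3GNT4, B3GNTL1, B3GALT6, B4GALT7 and B3GALNT2. The same span was passed by 80.0% of 1567 protein-coding genes with that mean level, the share of these genes too. A375+VEM was the highest library for 14 of the 40 genes and the lowest for 16, A375P the highest for 14 and the lowest for 12, A375R the highest for 10 and the lowest for 7, and A375+DMSO the highest for 2 and the lowest for 5. Among the protein-coding genes A375+VEM was the highest for 39.2% and the lowest for 31.6%, A375P for 28.0% and 37.1%, A375R for 21.4% and 16.4%, and A375+DMSO for 11.4% and 14.9%, so the glycosyltransferases lay near other genes in this.

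**Figure D1:**
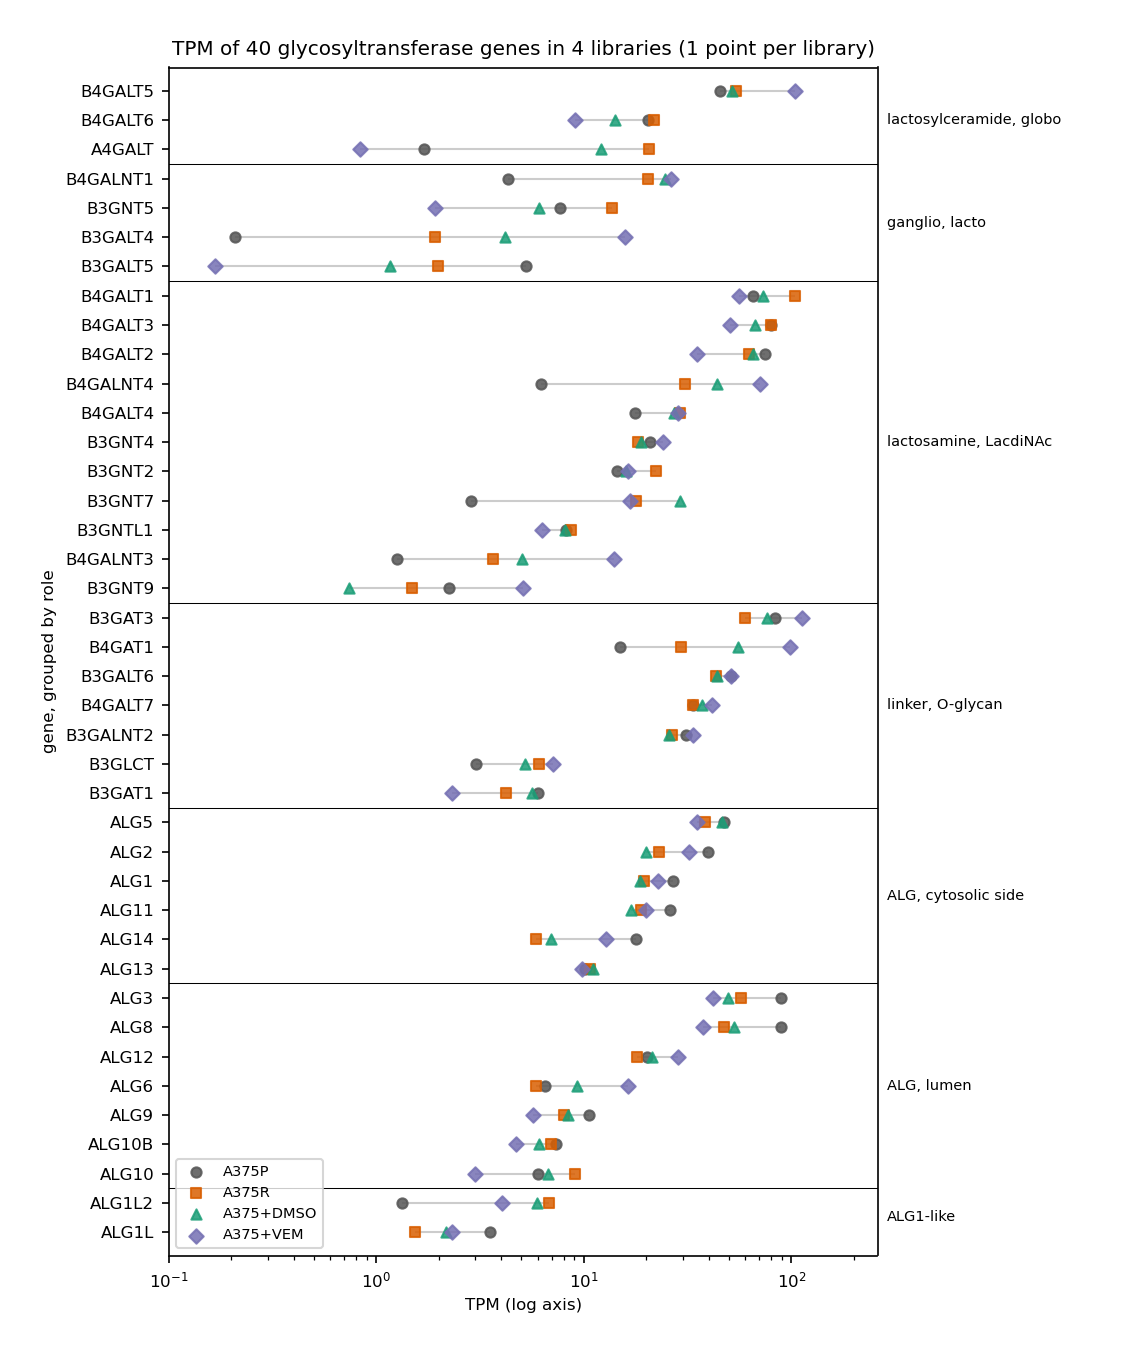
TPM (log axis) of the 40 genes whose mean TPM reached 1, grouped by role, with 1 point per library and a grey line from the lowest to the highest library. A4GALT ran from 0.830 in A375+VEM to 20.7 in A375R and B3GALT4 from 0.208 in A375P to 15.8 in A375+VEM, while ALG13, B3GNT4 and B3GALT6 stayed within 1.5-fold.

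The first question was how the resistant strain differed from its parent. In A375R against A375P, 42 of the 50 genes could be compared, and 13 were higher (31.0%) and 8 lower (19.0%). Among all 1553 protein-coding genes compared, 26.9% were higher and 16.6% lower, 43.5% in all, so the share of glycosyltransferases called lay near that of other genes. The median log2 ratio was -0.11 for the glycosyltransferases and 0.11 for protein-coding genes. When each ratio was scaled to the protein-coding median, 11 were higher and 11 lower, an even split in place of 61.9% of calls higher. Scaling shifts every gene alike, and among the protein-coding genes the share of calls that were higher went from 61.8% to 53.8%. On that scale B4GALT1 and B3GNT2 no longer passed as higher, and B3GNT9, B3GAT1 and B3GAT3 passed as lower. Against A375+DMSO, 5 of 40 genes were higher in A375R and 4 lower, beside 10.2% and 9.14% of protein-coding genes.

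The second question was the acute response. In A375+VEM against A375+DMSO, 11 of 42 genes were higher (26.2%) and 8 lower (19.0%), beside 25.6% and 20.0% of 1624 protein-coding genes, 45.6% in all. The median log2 ratio was 0.09 in both sets. Against A375P, 13 of 43 genes were higher in A375+VEM and 15 lower, beside 36.7% and 25.8% of protein-coding genes. The libraries without vemurafenib differed too, and A375+DMSO against A375P gave 10 of 42 genes higher and 10 lower, beside 26.8% and 18.5%.

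Some genes differed from both controls the same way. A375R was above both A375P and A375+DMSO in 2 of 42 genes, A4GALT and B3GNT5, and below both in 0, or 4.76% and 0%, near the 5.09% and 2.39% of protein-coding genes. A375+VEM was above both in 8 of 43 genes, namely ALG6, B3GALT2, B3GALT4, B3GNT9, B4GALNT3, B4GALNT4, B4GALT5 and B4GAT1. It was below both in 7, namely A4GALT, ALG10, B3GALT5, B3GAT1, B3GNT5, B4GALT2 and B4GALT6. These were 18.6% and 16.3%, near the 20.4% and 14.5% of protein-coding genes. A low gene could enter a comparison through the library where it was high alone, which favours a call, so the counts are a description of the genes compared and not of all 50. A4GALT and B3GNT5 thus stood at opposite ends, highest in A375R and lowest in A375+VEM.

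**Figure D2:**
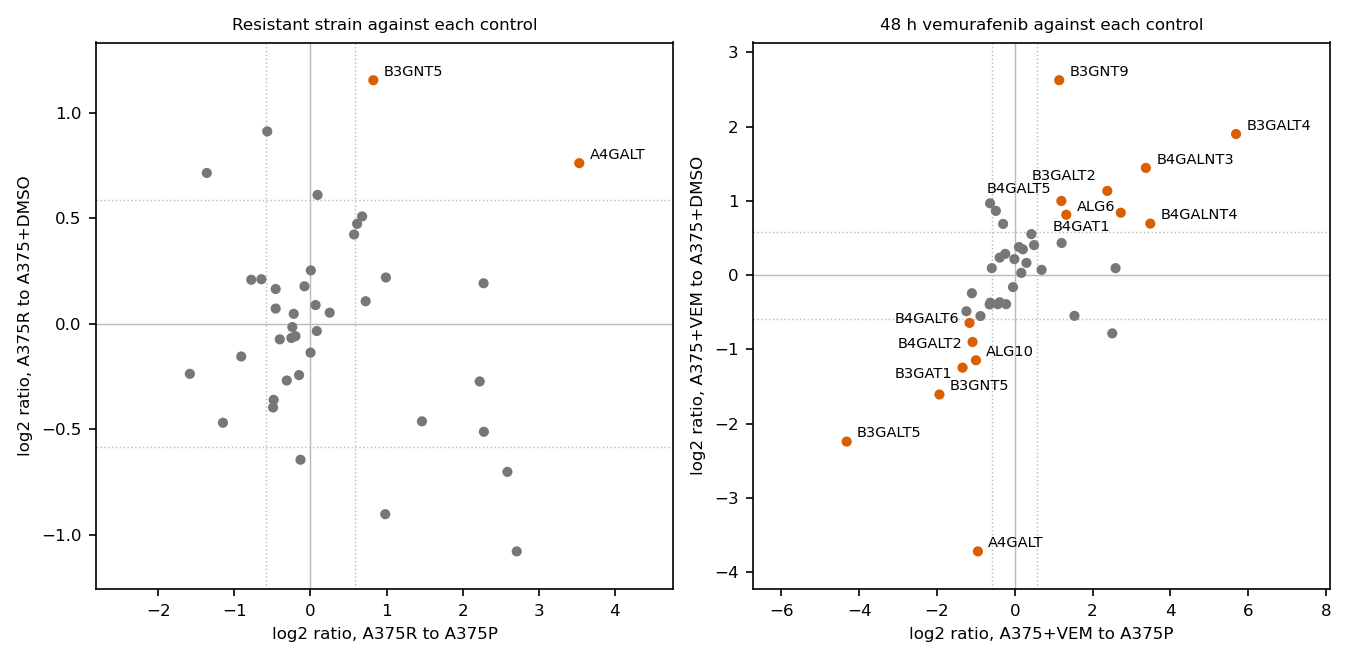
Log2 ratio of TPM to A375P (horizontal) and to A375+DMSO (vertical) for A375R (left, 40 genes) and A375+VEM (right, 42 genes), 1 point per gene, with dotted lines at 1.5-fold and axes that share the treated library. Orange genes passed 1.5-fold the same way against both controls, A4GALT and B3GNT5 in A375R, and 8 genes above and 7 below in A375+VEM.

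Promoter sequences are shown for the 2 genes above both controls in A375R and for the 2 genes with the most reads among those above both controls in A375+VEM, B4GALT5 and B4GALNT4. They run from 250 bases before to 50 bases after the annotated start in RefSeq on GRCh38.p14, 5′ to 3′ on the strand of the gene. RefSeq promoter entries matched 38 of the 50 genes. Capitals mark GGGCGG (a GC box, bound by Sp1-type factors) and GGAATG (the core bound by TEAD factors), searched on both strands as GGGCGG or CCGCCC and GGAATG or CATTCC, with overlapping matches counted. The windows are chr22:42720821-42721120 on the minus strand for A4GALT (the first of 2 entries), chr3:183253003-183253302 on the plus strand for B3GNT5, chr20:49713829-49714128 on the minus strand for B4GALT5 and chr11:369249-369548 on the plus strand for B4GALNT4.
A4GALT: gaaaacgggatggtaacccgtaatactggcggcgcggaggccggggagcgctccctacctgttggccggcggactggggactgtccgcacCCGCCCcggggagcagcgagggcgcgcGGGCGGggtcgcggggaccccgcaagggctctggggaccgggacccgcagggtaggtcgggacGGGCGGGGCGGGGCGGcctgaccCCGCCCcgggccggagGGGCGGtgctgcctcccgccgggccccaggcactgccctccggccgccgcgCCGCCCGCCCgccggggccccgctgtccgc
B3GNT5: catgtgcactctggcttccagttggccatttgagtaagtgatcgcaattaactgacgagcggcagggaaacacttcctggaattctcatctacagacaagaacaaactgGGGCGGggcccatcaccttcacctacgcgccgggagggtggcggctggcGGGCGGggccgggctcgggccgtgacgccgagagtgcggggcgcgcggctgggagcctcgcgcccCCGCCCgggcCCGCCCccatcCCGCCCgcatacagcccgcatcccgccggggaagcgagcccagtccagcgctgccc
B4GALT5: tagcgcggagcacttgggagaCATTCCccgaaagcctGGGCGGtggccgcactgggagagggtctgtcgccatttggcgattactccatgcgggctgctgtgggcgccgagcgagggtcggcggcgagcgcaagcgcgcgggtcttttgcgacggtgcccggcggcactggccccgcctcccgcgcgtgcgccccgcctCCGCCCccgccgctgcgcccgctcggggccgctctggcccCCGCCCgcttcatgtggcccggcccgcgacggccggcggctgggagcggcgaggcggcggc
B4GALNT4: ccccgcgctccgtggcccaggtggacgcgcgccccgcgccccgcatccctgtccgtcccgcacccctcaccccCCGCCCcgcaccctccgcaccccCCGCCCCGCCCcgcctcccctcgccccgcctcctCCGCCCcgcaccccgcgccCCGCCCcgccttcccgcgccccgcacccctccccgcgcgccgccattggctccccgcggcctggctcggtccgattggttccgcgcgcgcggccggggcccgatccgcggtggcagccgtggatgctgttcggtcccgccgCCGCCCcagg
The GC box occurred 9 times in the A4GALT window, 5 times in that of B3GNT5, 3 times in that of B4GALT5 and 6 times in that of B4GALNT4. GGAATG occurred 1 time, in the B4GALT5 window. Over all 55 windows of the 38 genes, 37 held a GC box (67.3%) and 9 held GGAATG (16.4%), beside 45.0% and 14.0% of all 35116 RefSeq windows. These matches describe the letters only.

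Enzymes at the lactosylceramide branch point and of the globo series gave 1 gene higher and 1 lower of 4 compared in A375R against A375P, and 1 higher and 2 lower of 3 in A375+VEM against A375+DMSO. The shares of protein-coding genes beside these and the counts of the other role groups below are 26.9% higher and 16.6% lower in the first comparison, and 25.6% and 20.0% in the second. With A375+DMSO as its control, A375R gave 2 genes of this group higher and 0 lower of 3, beside 10.2% and 9.14% of protein-coding genes. This group of lactosylceramide and globo enzymes was led by B4GALT5, one of the lactosylceramide synthases, which act before the series branch (hg19 chromosome 20, 48249482 to 48330421, minus strand). B4GALT5 had 45.1 TPM in A375P, 53.8 in A375R, 51.9 with DMSO and 103.7 with vemurafenib, from 1829, 1970, 1961 and 3895 reads. The 3 other libraries lay close together and A375+VEM lay apart, 2.00-fold [1.89, 2.11] above A375+DMSO and 2.30-fold [2.17, 2.43] above A375P. B4GALT6, its paralogue with the same activity, went the other way, with 20.3 TPM in A375P, 21.7 in A375R, 14.2 with DMSO and 9.03 with vemurafenib. It was 1.57-fold [1.39, 1.77] lower with vemurafenib than with DMSO and 2.25-fold [2.01, 2.52] lower than in A375P. A375R was 1.53-fold [1.39, 1.69] above A375+DMSO. B4GALT5 thereby made up 69.0% of the summed TPM of the pair in A375P, 71.3% in A375R, 78.6% with DMSO and 92.0% with vemurafenib.

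A4GALT, which turns lactosylceramide into the globo-series lipid Gb3, had the widest difference between the pairs (hg19 chromosome 22, 43088121 to 43117307, minus strand). It had 33 reads in A375P, 364 in A375R, 221 with DMSO and 15 with vemurafenib, or 1.69, 20.7, 12.1 and 0.830 TPM. A375R was 12.2-fold [8.54, 18.0] above A375P, but A375+DMSO was also 7.18-fold [4.96, 10.7] above A375P, and the excess of A375R over A375+DMSO was 1.70-fold [1.44, 2.02]. After 48 h of vemurafenib it was 14.6-fold [8.68, 26.6] lower than in A375+DMSO and 2.04-fold [1.08, 4.04] lower than in A375P. No interval of these comparisons included equal levels, and the size against the solvent control rests on the 15 reads of A375+VEM. The 4 melanocyte lineage markers summed to 46.2 TPM in A375R and to 13.8 to 16.8 in the other libraries, which came from BCL2A1 (37.5 in A375R), while BIRC7 and ABCB5 were lowest in A375R and BEST1 was highest in A375+DMSO. Their part in the difference was not tested.

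The remaining globo and alpha-linked enzymes were barely detected. A3GALT2, a gene named after isogloboside synthase, had 14, 5, 3 and 7 reads and 1.60, 0.631, 0.367 and 0.862 TPM in A375P, A375R, A375+DMSO and A375+VEM. It was called lower in A375R than in A375P, but its interval of 0.861 to 8.97-fold included equal levels, as did that of its 1.85-fold [0.700, 5.43] lower level in A375+VEM than in A375P. Against A375+DMSO it was not compared. B3GALNT1, which extends Gb3 to globoside, had 0 reads in 3 libraries and 1 read in A375+VEM, and 3 reads, the limit a count of 0 allows, would have been 0.0961 TPM in A375P. A4GNT, which caps gastric mucin chains, had 0.146 to 0.427 TPM.

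Of the ganglio and lacto series enzymes, 3 of 4 compared were higher and 1 lower in A375R than in A375P, and 2 of 5 were higher and 2 lower in A375+VEM than in A375+DMSO. With A375+DMSO as its control, A375R gave 2 genes higher and 1 lower of 4, beside 10.2% and 9.14% of protein-coding genes. B4GALNT1, the synthase of gangliosides GM2 and GD2 (hg19 chromosome 12, 58019678 to 58027022), had 4.30 TPM in A375P, 20.5 in A375R, 24.7 with DMSO and 26.4 with vemurafenib. A375P alone was low, by 4.76-fold [3.96, 5.75] against A375R, 5.76-fold [4.81, 6.93] against A375+DMSO and 6.14-fold [5.14, 7.39] against A375+VEM. Vemurafenib and solvent differed by 1.07-fold [0.966, 1.18], and A375R lay 1.21-fold below A375+DMSO, within the threshold. A4GALT and B4GALNT1 both act on the lactosylceramide branches, and the ratio of their TPM, A4GALT to B4GALNT1, was 0.394 in A375P, 1.01 in A375R, 0.491 with DMSO and 0.0315 with vemurafenib.

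B3GALT4 acts next in the same series, making GM1 and GD1b (hg19 chromosome 6, 33244917 to 33246602). It had 3 reads in A375P, 25 in A375R, 56 with DMSO and 211 with vemurafenib, or 0.208, 1.92, 4.15 and 15.8 TPM. A375+VEM was 3.79-fold [2.81, 5.19] above A375+DMSO, while A375R was 2.17-fold [1.33, 3.63] below A375+DMSO. Against the 3 reads of A375P the ratios were 9.23 [2.81, 47.7] for A375R, 20.0 [6.50, 99.9] for A375+DMSO and 75.9 [25.6, 371] for A375+VEM.

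B3GNT5 makes lactotriaosylceramide, the entry to the lacto and neolacto series (hg19 chromosome 3, 182971032 to 182991179, plus strand). It had 270, 435, 200 and 63 reads and 7.64, 13.6, 6.07 and 1.92 TPM in A375P, A375R, A375+DMSO and A375+VEM. A375R was 1.78-fold [1.53, 2.08] above A375P and 2.25-fold [1.90, 2.67] above A375+DMSO, so it stood above both controls, which lay 1.26-fold [1.05, 1.52] apart. A375+VEM was 3.15-fold [2.36, 4.25] below A375+DMSO and 3.97-fold [3.01, 5.31] below A375P.

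The type 1 chain galactosyltransferases were low. B3GALT5 (hg19 chromosome 21, 40984867 to 41034816) had 135 reads in A375P, 46 in A375R, 28 with DMSO and 4 with vemurafenib, or 5.24, 1.98, 1.16 and 0.168 TPM. It was the only gene called lower in both pairs, 2.65-fold [1.88, 3.79] lower in A375R than in A375P and 6.95-fold [2.43, 27.3] lower with vemurafenib than with DMSO. Against A375+DMSO it was 1.70-fold [1.04, 2.82] higher in A375R. B3GALT2 had 10, 3, 26 and 60 reads and 0.329, 0.109, 0.916 and 2.13 TPM, and was 2.32-fold [1.44, 3.84] higher with vemurafenib than with DMSO. B3GALT1, of the same activity, had 4 to 18 reads and was not compared.

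The lactosamine group builds the galactose and N-acetylglucosamine repeats of glycoprotein antennae, and in A375R against A375P 6 of its 12 genes compared were higher and 1 lower, beside 26.9% and 16.6% of protein-coding genes. In A375+VEM against A375+DMSO 4 were higher and 2 lower, beside 25.6% and 20.0%. With A375+DMSO as its control, A375R gave 1 gene higher and 1 lower of 11, beside 10.2% and 9.14%. B4GALT1, the main galactosyltransferase of N-glycan antennae, had 65.1 TPM in A375P, 104.3 in A375R, 73.2 with DMSO and 55.8 with vemurafenib. A375R was the high library, 1.60-fold [1.52, 1.69] above A375P and 1.42-fold [1.35, 1.5] above A375+DMSO, the latter below the threshold. B4GALT1 made up 27.5% of the summed TPM of B4GALT1 to B4GALT4 in A375P, 37.8% in A375R, 31.5% with DMSO and 32.8% with vemurafenib. B4GALT2 had 74.4, 62.5, 65.5 and 35.1 TPM in the same order, and A375+VEM alone was low, 1.87-fold [1.70, 2.05] below A375+DMSO. B4GALT3, with 79.3, 79.6, 66.7 and 50.7 TPM, passed the threshold in neither pair, but A375+VEM was 1.56-fold [1.44, 1.69] below A375P. B4GALT4 had 17.6, 29.2, 27.1 and 28.5 TPM, and here A375P alone was low, 1.66-fold [1.45, 1.90] below A375R and 1.62-fold [1.41, 1.85] below A375+VEM, while A375R and A375+DMSO differed by 1.08-fold.

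Among the N-acetylglucosaminyltransferases that alternate with these enzymes, B3GNT2, the main polylactosamine synthase, had 14.5 TPM in A375P, 22.2 in A375R, 16.0 with DMSO and 16.3 with vemurafenib. Its difference of 1.53-fold [1.33, 1.76] between A375R and A375P was just past the threshold, and A375R was 1.39-fold [1.21, 1.60] above A375+DMSO. B3GNT7, which extends keratan sulfate chains (hg19 chromosome 2, 232260335 to 232265875), had 89, 498, 838 and 482 reads and 2.86, 17.7, 28.9 and 16.7 TPM. A375P was the low library, 6.19-fold [4.93, 7.85] below A375R and 10.1-fold [8.10, 12.7] below A375+DMSO. Against A375+DMSO, the highest library, A375+VEM was 1.73-fold [1.54, 1.94] lower and A375R 1.63-fold [1.46, 1.82] lower, while A375+VEM was 5.84-fold [4.65, 7.41] above A375P.

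B3GNT9, a putative member of the family, had 52, 31, 16 and 109 reads and 2.24, 1.48, 0.740 and 5.07 TPM in A375P, A375R, A375+DMSO and A375+VEM. A375+VEM was 6.86-fold [4.04, 12.4] above A375+DMSO and 2.26-fold [1.61, 3.21] above A375P, and A375R was 2.00-fold [1.06, 3.92] above A375+DMSO. Against A375P, A375R was 1.52-fold [0.953, 2.45] lower, which was not called with the 0.1 added, and A375+DMSO was 3.03-fold [1.70, 5.69] lower. B3GNT9 shares 443 bases with C16orf70 on the opposite strand, and without stranded counting reads from such a stretch cannot be told apart. B3GNT8, a polylactosamine enzyme, had 26, 10, 7 and 15 reads and 1.62, 0.689, 0.467 and 1.01 TPM. Its 2.16-fold [0.828, 6.26] difference between A375+VEM and A375+DMSO included equal levels, and so did its 1.61-fold [0.820, 3.26] lower level in A375+VEM than in A375P. It was 2.35-fold [1.10, 5.46] lower in A375R than in A375P and was not compared with A375+DMSO. The remaining genes of this kind, B3GNT4 with 18.2 to 24.1 TPM and B3GNTL1 with 6.28 to 8.64, stayed within 1.5-fold across the 4 libraries. B3GNT3, which extends core 1 O-glycans, B3GNT6, the core 3 synthase, and B4GALNT2, which makes the Sda antigen, had 0 to 4 reads and were not compared.

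B4GALNT3 and B4GALNT4 make LacdiNAc, the variant in which N-acetylgalactosamine takes the place of galactose, and both were called higher in both pairs. B4GALNT4 (hg19 chromosome 11, 369795 to 382117, plus strand) had 185, 822, 1211 and 1946 reads and 6.25, 30.7, 43.8 and 70.9 TPM in A375P, A375R, A375+DMSO and A375+VEM. A375R was 4.92-fold [4.19, 5.80] above A375P, and A375+VEM was 1.62-fold [1.51, 1.74] above A375+DMSO. A375+DMSO was itself 7.02-fold [6.01, 8.23] above A375P, and A375R was 1.43-fold [1.30, 1.56] below A375+DMSO. B4GALNT3 (hg19 chromosome 12, 569543 to 671058) had 37, 97, 139 and 380 reads and 1.26, 3.64, 5.06 and 13.9 TPM. A375R was 2.90-fold [1.97, 4.36] above A375P and 1.39-fold below A375+DMSO, and A375+VEM was 2.75-fold [2.26, 3.37] above A375+DMSO. The libraries had the same order for both genes, A375P lowest and A375+VEM highest. The ratio of B4GALNT4 to B4GALNT3 in TPM was 4.98, 8.43, 8.67 and 5.10.

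Of the 8 genes for proteoglycan linkers and O-linked chains, 2 of 7 compared were higher and 0 lower in A375R than in A375P, and 1 was higher and 1 lower in A375+VEM than in A375+DMSO. With A375+DMSO as its control, A375R gave 0 genes higher and 1 lower of 7, beside 10.2% and 9.14% of protein-coding genes. B3GAT3, which adds the glucuronic acid that completes the proteoglycan linker, had the highest level of the group with 83.4 TPM in A375P, 59.6 in A375R, 76.5 with DMSO and 112.2 with vemurafenib, and passed the threshold in neither pair. The linker galactosyltransferases B4GALT7 (33.7 to 41.5 TPM) and B3GALT6 (43.5 to 51.3) and the O-mannose enzyme B3GALNT2 (25.7 to 33.4) stayed within 1.5-fold across the 4 libraries. B4GAT1, which primes the matriglycan chain of dystroglycan (hg19 chromosome 11, 66112843 to 66115161, minus strand), had 264, 473, 914 and 1626 reads and 14.9, 29.5, 55.2 and 98.9 TPM. A375R was 1.98-fold [1.70, 2.31] above A375P, and A375+VEM was 1.79-fold [1.65, 1.94] above A375+DMSO. A375R lay 1.87-fold [1.67, 2.09] below A375+DMSO, so that the direction for the resistant strain depended on the control.

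B3GLCT, which adds glucose to O-fucose on thrombospondin repeats, had 3.02 TPM in A375P, 6.10 in A375R, 5.22 with DMSO and 7.08 with vemurafenib, and A375R was 2.02-fold [1.59, 2.58] above A375P but 1.17-fold above A375+DMSO, and A375+VEM was 2.35-fold [1.86, 2.97] above A375P. B3GAT1, which makes the HNK-1 epitope, had 6.0, 4.24, 5.61 and 2.31 TPM and was 2.43-fold [1.82, 3.28] lower with vemurafenib than with DMSO. B3GAT2, of the same activity, had 2 to 10 reads and was not compared.

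**Figure D3:**
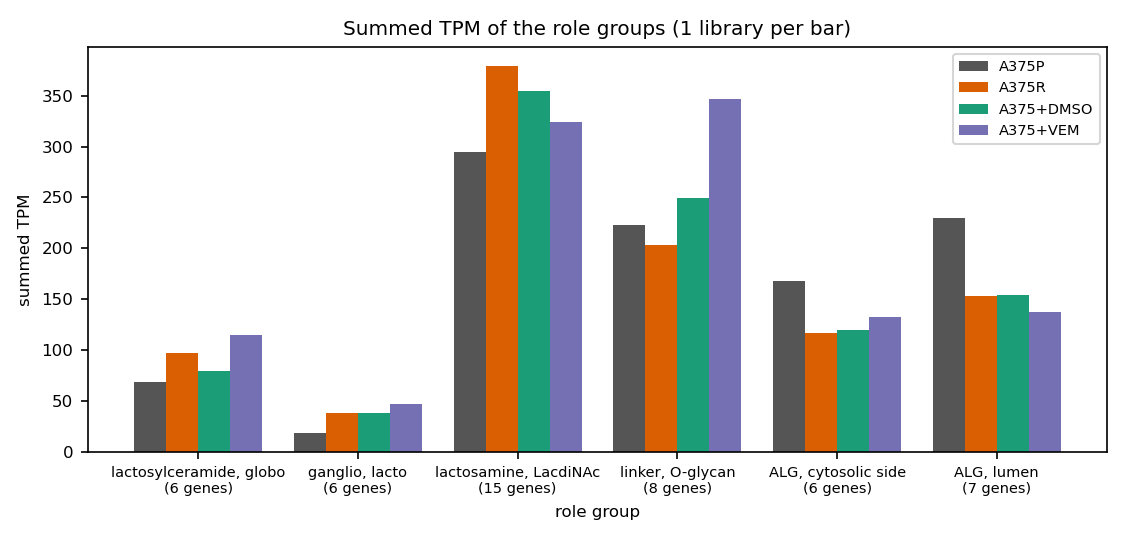
Summed TPM of the genes of each role group, 1 bar per library, with the axis starting at 0. The cytosolic and lumenal ALG groups were highest in A375P, the linker group in A375+VEM (347 TPM) and the lactosamine group in A375R (379 TPM).

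The 13 ALG enzymes of the dolichol pathway summed to 398 TPM in A375P, 269 in A375R, 274 with DMSO and 270 with vemurafenib, so that A375P lay above the other 3 libraries. ALG3 and ALG8 had the highest TPM of these enzymes in every library, while ALG6, ALG10, ALG12 and ALG13 were not highest in A375P. Among markers of other cell types, ACTA2 (92.2 TPM), the summed liver markers (88.9 TPM) and the summed skeletal and heart muscle markers (4.36 TPM) were highest in A375P. The summed blood markers (0.927 TPM) and lymphocyte markers (0 TPM) were lowest there. Most of the muscle sum there was ACTN2 (4.02 TPM), while ACTA1 and ACTC1 were highest in A375+VEM. Of the liver markers, ALB, APOA1 and APOC3 were highest there and AHSG was lowest there (3.63 TPM, with 4.61 to 5.26 in the other libraries). Their part in this was not tested. In A375R against A375P, 2 of 6 enzymes of the cytosolic side and 2 of 7 of the lumen were lower and 0 were higher, and the log2 ratio was below 0 for 5 and 6 of them, beside 43.6% of protein-coding genes. A375+DMSO was also lower than A375P for 3 and 2 of these enzymes, beside 18.5%. With A375+DMSO as its control, A375R was called for 0 of the 6 cytosolic enzymes. It was lower for 1 of the 7 of the lumen (ALG6) and higher for 0, beside 9.14% of protein-coding genes lower and 10.2% higher. Against A375P, A375+VEM was called for 0 of the 6 cytosolic enzymes, and was lower for 5 of the 7 of the lumen (ALG3, ALG8, ALG9, ALG10 and ALG10B) and higher for 1 (ALG6), beside 25.8% of protein-coding genes lower and 36.7% higher. A375+VEM against A375+DMSO gave 2 higher on the cytosolic side, and 1 higher and 1 lower in the lumen. On the cytosolic side ALG5, which makes the dolichol-linked glucose donor, had the highest mean level with 47.6, 38.3, 46.1 and 35.2 TPM in A375P, A375R, A375+DMSO and A375+VEM, within 1.5-fold.

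ALG2, which adds the mannoses that follow the first, had 1012, 532, 475 and 762 reads and 39.5, 23.0, 19.9 and 32.1 TPM. A375R was 1.72-fold [1.55, 1.91] below A375P, and A375+VEM was 1.62-fold [1.44, 1.82] above A375+DMSO. ALG14, a subunit of the enzyme that adds the second N-acetylglucosamine, had the same order of libraries at the top, with 168, 50, 61 and 111 reads and 17.9, 5.90, 6.97 and 12.8 TPM. A375R was 3.04-fold [2.20, 4.25] below A375P, and A375+VEM was 1.83-fold [1.33, 2.55] above A375+DMSO. ALG13, the partner of ALG14 in that enzyme, had 9.83 to 11.0 TPM. ALG11, which adds the last mannoses on this side, had 26.1, 19.0, 16.9 and 19.9 TPM and passed the threshold in neither pair. For ALG2 and ALG14 alike, A375R and A375+DMSO lay within 1.5-fold of each other, and A375P and A375+VEM lay above them. Against A375P, A375+VEM was 1.23-fold lower for ALG2 and 1.40-fold lower for ALG14, neither past the threshold.

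In the lumen, ALG3, which adds the first mannose there, had 89.6 TPM in A375P, 57.2 in A375R, 49.4 with DMSO and 41.7 with vemurafenib, and was 1.57-fold [1.43, 1.71] lower in A375R than in A375P. ALG8, the second glucosyltransferase, had 89.4, 47.5, 52.9 and 37.7 TPM and was 1.88-fold [1.71, 2.07] lower in A375R than in A375P. For both, A375P was the high library, and A375R and A375+DMSO lay within 1.5-fold of each other. A375+VEM was 2.15-fold [1.95, 2.37] below A375P for ALG3 and 2.37-fold [2.14, 2.63] for ALG8. ALG6, the first glucosyltransferase, had 6.47, 5.90, 9.27 and 16.4 TPM and was 1.76-fold [1.51, 2.07] higher with vemurafenib than with DMSO, while A375R was 1.57-fold [1.28, 1.93] below A375+DMSO. ALG10, the last glucosyltransferase, had 6.04, 9.04, 6.72 and 2.98 TPM and was 2.25-fold [1.71, 3.01] lower with vemurafenib than with DMSO. The values of ALG10 are uncertain because ALG10B, with 7.32, 6.92, 6.11 and 4.70 TPM, is nearly identical and the handling of shared reads is not given. ALG12 and ALG9, mannosyltransferases of the lumen, passed the threshold in neither pair, but A375+VEM was 1.86-fold [1.61, 2.14] below A375P for ALG9. It was also 1.56-fold [1.37, 1.77] below A375P for ALG10B.

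The ALG1-like genes ALG1L2 and ALG1L are near copies of ALG1, so their values are uncertain in the same way. ALG1L2 had 11, 51, 46 and 31 reads and 1.32, 6.80, 5.94 and 4.03 TPM, and A375R was 5.13-fold [2.64, 10.9] above A375P and 1.15-fold above A375+DMSO, while A375+VEM was 3.04-fold [1.49, 6.71] above A375P. ALG1L had 28, 11, 16 and 17 reads and 3.55, 1.54, 2.17 and 2.32 TPM, and was 2.30-fold [1.11, 5.12] lower in A375R than in A375P. It was 1.41-fold lower in A375R than in A375+DMSO, and the interval of its 1.53-fold [0.807, 2.97] lower level in A375+VEM than in A375P included equal levels. ALG1 itself, the first mannosyltransferase, had 26.9, 19.6, 18.6 and 22.7 TPM and passed the threshold in neither pair.

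**Figure D4:**
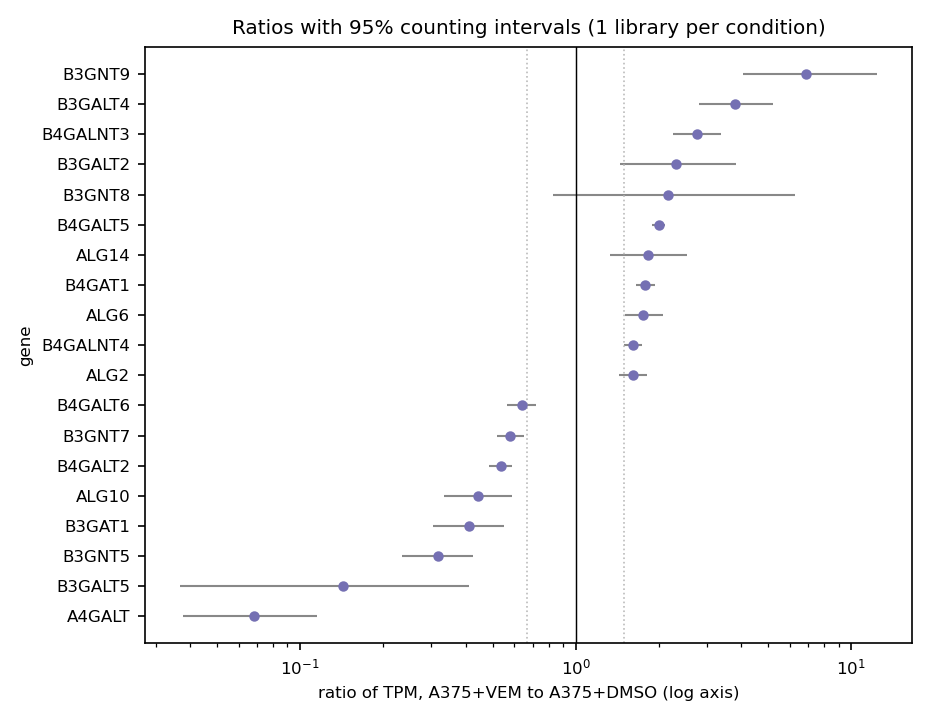
Ratio of TPM in A375+VEM to A375+DMSO (log axis) for the 19 glycosyltransferase genes past 1.5-fold, with exact 95% intervals for counting error and dotted lines at 1.5-fold. B3GNT9 (6.86-fold) and B3GALT4 (3.79-fold) lie highest, A4GALT and B3GALT5 lie lowest, and the interval of B3GNT8 spans equal levels.

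Side by side, the pairs the study sequenced showed every combination of directions. B3GALT4, B4GALNT3, B4GALNT4 and B4GAT1 were higher in A375R than in A375P and in A375+VEM than in A375+DMSO, and B3GALT5 was lower in both. These were 9.76% and 2.44% of the 41 genes compared in both pairs, beside 7.51% and 2.81% of 1531 protein-coding genes. A4GALT, B3GNT5 and B3GNT7 were higher in the first pair and lower in the second, and ALG14, ALG2 and B3GNT8 the reverse. Each of these made up 7.32%, beside 6.86% and 4.77% of protein-coding genes, so all 4 shares lay near those of other genes. Of the 4 genes higher in both pairs, B3GALT4 and B4GAT1 were lower in A375R than in A375+DMSO, and B4GALNT3 and B4GALNT4 were within 1.5-fold of it.

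**Figure D5:**
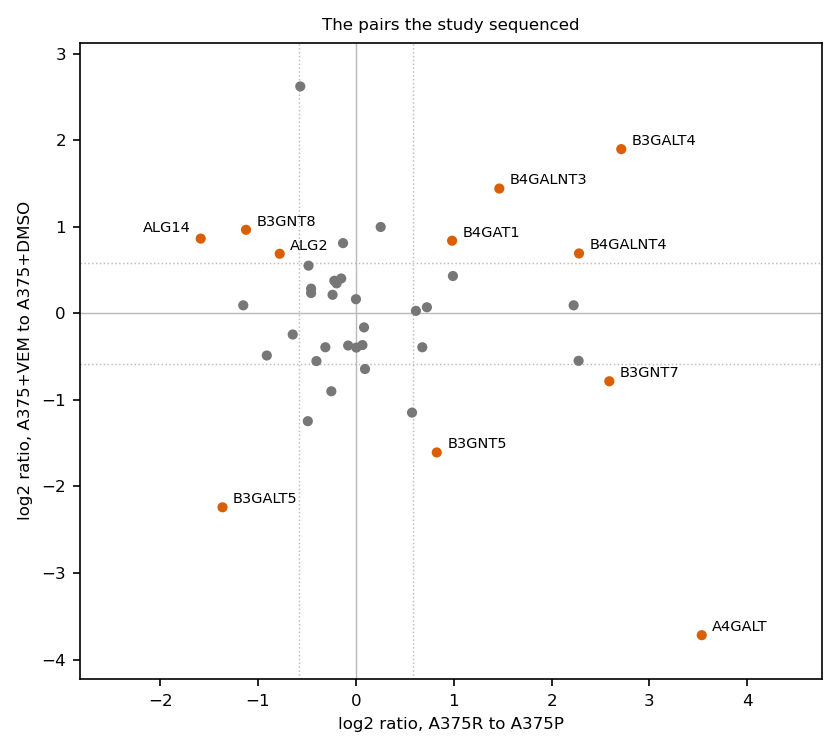
Log2 ratio of TPM in A375R to A375P (horizontal) against that in A375+VEM to A375+DMSO (vertical), 1 point for each of the 41 genes compared in both, with dotted lines at 1.5-fold. The 11 genes past 1.5-fold in both pairs are named, from A4GALT at 3.53 and -3.72 to ALG14 at -1.59 and 0.86.

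Other genes of glycan and ceramide metabolism in this part of the table were taken as a list of 14, of which 11 could be compared. In A375R against A375P 2 were higher (C1GALT1 and ARSA) and 3 lower (ASAH1, ARSB and ACER2), beside 26.9% and 16.6% of protein-coding genes, and the median log2 ratio was 0.13, beside 0.11. In A375+VEM against A375+DMSO 6 were higher and 3 lower, beside 25.6% and 20.0%, and the median was 0.69, beside 0.09. C1GALT1, the core 1 O-glycan synthase, had 16.2 TPM in A375P, 26.2 in A375R, 18.0 with DMSO and 7.19 with vemurafenib, and A375R was 1.62-fold above A375P and 1.46-fold above A375+DMSO, while A375+VEM was 2.50-fold [2.21, 2.84] below A375+DMSO. Its chaperone C1GALT1C1 had 13.8, 15.7, 12.6 and 28.0 TPM and was 2.22-fold higher with vemurafenib than with DMSO. The 3 listed lysosomal enzymes of glycan and glycolipid breakdown, ARSA, ARSB and AGA, each had their highest level in A375+VEM, as did 39.2% of protein-coding genes. ARSA, which removes sulfate from sulfatide, had 3.92, 8.02, 9.88 and 32.9 TPM, and A375R was 2.05-fold above A375P but 1.23-fold below A375+DMSO. A375+VEM was 3.33-fold [2.94, 3.76] above A375+DMSO. ARSB, which acts on dermatan sulfate, had 7.77, 5.01, 6.23 and 15.8 TPM, so that A375R was 1.55-fold below A375P and 1.24-fold below A375+DMSO. AGA, which cleaves the asparagine link, had 23.1, 23.8, 27.2 and 47.4. AMDHD2, a deacetylase of N-acetylglucosamine phosphate, had 24.2, 17.8, 23.4 and 37.9 TPM.

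The ceramidases, which split ceramide, differed in direction. ASAH1, the acid ceramidase, had 32.4 TPM in A375P, 15.9 in A375R, 16.2 with DMSO and 32.9 with vemurafenib, so that it was 2.04-fold lower in A375R than in A375P and 2.03-fold higher with vemurafenib than with DMSO. Against the other control neither passed the threshold, as A375R was 1.02-fold below A375+DMSO and A375+VEM 1.01-fold above A375P. ACER2, the Golgi ceramidase, had 8.35, 5.30, 2.67 and 0.927 TPM and was 2.88-fold lower with vemurafenib than with DMSO. A375R was 1.58-fold below A375P but 1.98-fold above A375+DMSO. ASAH2B had 5.33, 5.86, 4.21 and 1.95 TPM and was 2.15-fold lower with vemurafenib than with DMSO. ACER3, with 11.7, 13.2, 10.9 and 11.2 TPM, passed the threshold in neither pair. ABO, ASAH2 and ACER1 stayed below 1 TPM in all 4 libraries, and C1GALT1C1L had 1.10 to 2.26 TPM. C1GALT1C1L was 2.06-fold [0.950, 4.73] higher in A375+VEM than in A375P, and 2.05-fold [0.943, 4.70] higher in A375+DMSO than in A375P. These intervals included equal levels, and A375+VEM and A375+DMSO differed by 1.01-fold.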

How the data were processed

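RNA of A375 cells was sequenced in 4 libraries, 1 per condition. The authors deposited a table of read counts per gene and TPM per gene and library, with hg19 positions. The submitters' processing notes name hg19, HISAT2, HISAT, TopHat2 and Bowtie2 without role or order. The counting program, the annotation release, strand settings and the handling of reads shared between near-identical genes are not given in the sources used here. The table analysed here is an alphabetical part, and 1 incomplete line was left out. TPM times length divided by count gave 1 constant per library (116.684, 129.17, 125.051 and 125.929), so TPM is the counts scaled by length and library.

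Ratios were taken as log2(TPM + 0.1) where a gene reached a TPM of 1 in 1 library of the pair and called past 1.5-fold. Exact Clopper-Pearson 95% intervals were computed from the reads of a gene in the libraries of the pair, given those scaling constants. With 1 library per condition no test was made. Values in all 4 libraries were given for genes past 1.5-fold in either pair and for the highest gene of each role group, and other genes were given by counts and ranges. The genes and lists were chosen with earlier results of these data known. Alternatives were another pseudocount (1 or 0.01), no filter or a minimum TPM of 5, scaling to the protein-coding median, a 2-fold threshold and the other library without vemurafenib as control. The code was tested on simulated data. The versions were scipy 1.17.1, numpy 2.4.6, matplotlib 3.10.9, pandas 2.3.3 and Python 3.11.15. Promoters came from RefSeq on GRCh38.p14, and no coordinates were converted.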

Additional observations from a re-analysis of the deposited data

Results flagged for a closer look

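Of the genes compared, 6 passed 1.5-fold one way in A375R against A375P and the other way in A375+VEM against A375+DMSO. These were 14.6% of the 41 genes compared in both pairs, beside 11.6% of 1531 protein-coding genes, so the count is near that of other genes. Whether the pairs differ was not tested, since each condition had 1 library. A4GALT, the Gb3 synthase, had a log2 ratio of 3.53 in A375R to A375P and -3.72 in A375+VEM to A375+DMSO. B3GNT5, the lactotriaosylceramide synthase, had 0.83 and -1.61. B3GNT7, of keratan sulfate chains, had 2.59 and -0.78. ALG14, of the lipid-linked precursor, had -1.59 and 0.86. ALG2, a mannosyltransferase of the same pathway, had -0.78 and 0.69. B3GNT8, a polylactosamine enzyme, had -1.12 and 0.97, from 7 to 26 reads a library.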

How the results depend on the processing

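Only the choice of control changed the sign of single-gene log2 ratios, among the alternatives run on them. For A375+VEM against A375+DMSO, the number of higher genes went from 11 to 13 with the other control and to 4 with the 2-fold threshold. A375+DMSO against A375P had no other control. With A375+DMSO as the control of A375R, 5 glycosyltransferase genes were higher and 4 lower, and the median log2 ratio was 0.017, with 22.5% called beside 19.3% of protein-coding genes. The log2 ratio then changed sign for A3GALT2 (0.65), ALG2 (0.21), ALG3 (0.21), B3GALT4 (-1.08), B3GALT5 (0.72), B3GNT7 (-0.70), B3GNT8 (0.48), B4GALNT1 (-0.27), B4GALNT3 (-0.46), B4GALNT4 (-0.51) and B4GAT1 (-0.90). A3GALT2 and B3GNT8 reached 1 TPM in neither library there, so they were not compared, and their intervals included equal levels. With A375P as the control of A375+VEM, 13 were higher and 15 lower, 65.1% were called beside 62.5%, the median was -0.22, and the sign changed for ALG14 (-0.48), ALG2 (-0.30), B3GNT7 (2.51) and B3GNT8 (-0.63). The cause was not tested. A 2-fold threshold left 7 higher and 5 lower in A375R against A375P, 4 higher and 5 lower in A375+VEM against A375+DMSO, and 8 higher and 5 lower in A375+DMSO against A375P. The shares called were then 28.6%, 21.4% and 31.0%, beside 22.0%, 25.4% and 25.6% of protein-coding genes. A minimum TPM of 5, which tests fewer genes, left 11 higher and 5 lower in A375R and 9 higher and 6 lower in A375+DMSO, each against A375P, with 44.4% and 40.5% called beside 40.1% and 41.7%. Scaling to the protein-coding median gave a median of -0.21 in A375R against A375P. Alternatives chosen after seeing the data were a mean TPM of at least 1 over the 4 libraries and a 95% interval wholly past 1.5-fold. The latter left 11 higher and 4 lower in A375R and 8 higher and 6 lower in A375+DMSO, each against A375P, and 7 higher and 7 lower in A375+VEM against A375+DMSO, with 35.7%, 33.3% and 33.3% called beside 28.2%, 31.6% and 31.7%. Of 40 single-gene log2 ratios, a pseudocount of 1 moved 6, one of 0.01 moved 0 and the scaling moved 2, with no change of sign. The other control changed the sign of 15 of the 40, moved 19 more outside their counting interval and left 6 within it. Depth limits A3GALT2, B3GALT2, B3GALT4, B3GALT5 and B3GNT8, each with under 10 reads in at least 1 library. No paired analysis was possible because each condition had 1 library, and leaving out a replicate was not possible either.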

Other observations

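Antisense genes, pseudogenes and a related misc_RNA of the family had few reads, with 1 clear exception. B3GALT5-AS1 had 14 reads in A375P and 1, 1 and 2 in A375R, A375+DMSO and A375+VEM. B4GALT1-AS1, which shares 411 bases with B4GALT1 on the opposite strand, had 11, 0, 2 and 2 reads in the same order. B4GALT4-AS1, which overlaps B4GALT4 over 8656 bases on the opposite strand, had 0, 2, 1 and 0. The pseudogene ALG1L7P had 13 to 63 reads, and ALG1L9P, labelled misc_RNA in the deposited data, had 32 to 45. The exception was ALG1L6P, a pseudogene of the ALG1 family on hg19 chromosome 3, with 347 reads in A375P, 390 in A375R, 491 with DMSO and 475 with vemurafenib, or 12.4, 15.5, 18.9 and 18.4 TPM, above the protein-coding ALG1L2 and ALG1L in every library. These are near copies of one another, so the split of reads between them is uncertain.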
